A study of Mus musculus with 6 samples.

Results

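Heat-shock proteins are chaperones that bind unfolded protein and help it to fold, and DnaJ proteins are co-chaperones that bring substrates to HSP70 and start its ATPase cycle through their J domain. In the cytosol a few of these genes are switched on by the heat-shock factor Hsf1 when protein damage rises, while the others are made at all times. The ER and the mitochondrion have chaperones of their own. ER members are raised by the unfolded protein response when secretory load grows, and mitochondrial members drive import and folding of matrix proteins. The genes were chosen by symbol alone (the Hspa, Hspb, Dnaja, Dnajb and Dnajc families with a number, Hspd1, Hspe1, Hsph1 and the Hsp90a and Hsp90b genes), which took 65 of the 14366 genes in the deposited table. They were placed by textbook knowledge in 4 classes, with 10 cytosolic inducible, 32 cytosolic constitutive (nuclear genes and those of uncertain site included), 14 ER and 9 mitochondrial genes.

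RNA-seq of whole mesonephroi from male mouse embryos at embryonic day 16.5 was compared between 3 control libraries (genotype Osr2Cre+;Gata2-flox/+) and 3 Gata2cKO libraries (Osr2Cre+;Gata2-flox/flox). Both groups carried the Osr2-driven Cre recombinase and a floxed allele of the transcription factor gene Gata2. Cre thus had a Gata2 allele to act on in controls too. The comparison is of flox/flox with flox/+, and not of deleted with untouched Gata2. Cre from the Osr2 gene acts in mesenchyme, and epithelial, endothelial and blood cells in the same tissue are not its target. The values were taken to be TPM (a transcript share, scaled for gene length and library total), so levels can be compared between genes, but read depth is unknown and no counting error can be given. The labels do not say whether libraries of a group came from separate embryos, and p-values measure the spread between these libraries, which may be technical.

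Gata2 was at 384, 464 and 546 TPM in control replicates 1 to 3 and at 431, 530 and 416 TPM in Gata2cKO replicates 1 to 3 (log2 fold change -0.01, limma adjusted p = 0.968), so its level over the whole gene does not check the labels, and every direction given here rests on them. Markers of duct epithelium (11 of 11) and of urogenital mesenchyme (8 of 8) were present at tested levels, and some differed between groups. Of the 11 epithelial markers 2 rose, Epcam and Cldn4 (18.2%, against 5.73% of all tested genes higher). In that list 0 fell, and 2 had negative values. Of the 8 mesenchymal markers 3 fell (37.5%, against 1.74% of all tested genes lower) and 0 rose. Those that fell were Osr2 (261 ± 54.1 against 127 ± 9.35 TPM), Tcf21 and Nr2f2, and the other 5 had positive values. Some blood and vessel markers rose, beside 5.73% of all tested genes higher. They were 3 of 6 tested for mast cells (50%), 3 of 6 for macrophages and neutrophils (50%) and 2 of 7 for endothelium (28.6%). In each list 0 were called lower, but Kit of the mast cell list lay lower without overlap (2.90 against 2.25 TPM) and Cd68 had a negative value. Of 6 tested erythroid markers 0 passed, against 7.47% of all tested genes. Summed over each list, controls and Gata2cKO had 101 to 142 and 277 to 301 TPM for mast cells, 124 to 138 and 202 to 276 TPM for macrophages and neutrophils, and 299 to 394 and 418 to 514 TPM for endothelium. The erythroid list held 6863 to 18279 TPM in controls and 10519 to 13828 TPM in Gata2cKO, with overlap. In whole tissue fewer cells of a type and less RNA per cell cannot be told apart, and the part of these markers in the chaperone values was not tested. Control replicate 1 stood apart from the other libraries, with 21.9% of its TPM from mitochondrially encoded genes against 13.2% to 16.3% elsewhere, and it held the highest or the lowest value of the 6 libraries for 52.2% of all tested genes and 54.7% of the tested chaperone genes. Control replicate 1 also had the highest erythroid sum, 18279 TPM against 6863 and 7811 TPM in the other controls. Values without control replicate 1 are given beside the genes it touches most. Gata2cKO replicate 2 held the highest value of the 6 libraries for 39.1% of the tested chaperone genes, against 27.9% of all tested genes.

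Promoter sequences are shown first for the genes that the results turn on. RefSeq promoter windows (GRCm38.p6, 250 bases before to 50 bases after each annotated start) were found for 52 of the 65 genes. Hspa1a and Hspa1b, the inducible HSP70 genes, are shown because they rose most. Both lie on the minus strand of chromosome 17, and the stretches run from 210 to 81 bases before the start (chr17:34972237-34972366 for Hspa1a and chr17:34959319-34959448 for Hspa1b). Capitals mark GAANNTTC, 2 inverted units of the heat-shock element through which Hsf1 acts. A match of 2 units was in 7.86% of all windows, so it does not by itself mark a site bound by Hsf1.
Hspa1a: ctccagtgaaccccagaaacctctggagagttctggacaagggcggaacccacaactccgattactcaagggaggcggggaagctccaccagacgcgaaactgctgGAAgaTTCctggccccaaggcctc
Hspa1b: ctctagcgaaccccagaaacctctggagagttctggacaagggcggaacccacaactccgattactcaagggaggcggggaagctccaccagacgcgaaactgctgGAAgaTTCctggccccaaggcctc

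The windows of these genes were identical at 296 of 300 bases, and in both the match lay 104 to 97 bases before the start. GAANNTTC, which reads the same on both strands, was found in 7 of the 9 inducible genes with a window (Hspa1a, Hspa1b, Hsph1, Hspb1, Hspb8, Dnaja1 and Dnaja4), in 2 of 6 mitochondrial, 3 of 25 constitutive and 0 of 12 ER genes. It was in 9.04% of all RefSeq genes with a window. Counted by window, the share was 7.86% of all and 20.3% of the 69 windows of chaperone genes. The element of 3 units, GAANNTTC followed by NNGAA and searched on both strands (so that it contains the shorter one), was in the windows of Hsph1, Dnajb6, Hspd1 and Hspe1, which is 8.70% of the chaperone windows against 0.603% of all. The mitochondrial chaperonin genes Hspd1 and Hspe1 lie head to head and share this element. It is shown on the strand of Hspe1 (chr1:55088053-55088082, plus strand, 95 to 66 bases before the start, within an exon that GENCODE gives to Hspd1), where overlapping matches on both strands make up the capitals. Hspb6, the gene that fell, held GAANNTTC (chr7:30553170-30553199, plus strand, before a start that lies inside the gene), and Dnajc10, an ER gene that rose, held the other arrangement, TTCNNGAA (chr2:80315269-80315308, plus strand), which was in 8.52% of all windows.
Hspe1: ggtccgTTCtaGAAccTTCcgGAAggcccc
Hspb6: aagtaattattGAAgtTTCtaaataaggaa
Dnajc10: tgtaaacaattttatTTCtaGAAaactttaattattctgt

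The ER stress element, CCAAT and CCACG with NNNNNNNNN between them on either strand, through which the unfolded protein response acts, was in the windows of 3 of 12 ER genes and of 0 genes of the other classes, against 0.137% of all genes and 0.119% of all windows. The 3 were Hspa5 (chr2:34772020-34772048, plus strand, within an exon that GENCODE gives to Hspa5), Dnajc3 (chr14:118937822-118937850, plus strand) and Hsp90b1 (chr10:86705528-86705661, minus strand), and Hsp90b1 held it in both orientations. They are shown, with the fixed letters in capitals, because of them only Dnajc3 passed the test below. A match is a description of letters and not a measured binding site.
Hspa5: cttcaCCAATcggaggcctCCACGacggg
Dnajc3: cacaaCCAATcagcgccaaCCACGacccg
Hsp90b1: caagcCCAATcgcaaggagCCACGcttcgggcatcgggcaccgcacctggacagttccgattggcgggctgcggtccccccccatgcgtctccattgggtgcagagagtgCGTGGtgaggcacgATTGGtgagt

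Chaperone transcripts were abundant and dominated by a few genes. The 65 genes together made up 1.17% of all TPM, and 3 of them, Hsp90ab1, Hspa8 and Hspa5, held 69.9% of that. The mean level was 1000 TPM or more for 3 genes, 100 to 1000 for 9, 10 to 100 for 33, 1 to 10 for 19 and under 1 for 1. Constitutive genes held 65.2% of the chaperone TPM, ER genes 18.0%, inducible genes 9.81% and mitochondrial genes 6.95%. The plot of level against fold change shows these genes spread over most of the range of levels, with Hsp90ab1, Hspa8 and Hspa5 at the top and at log2 fold changes of 0.18, 0.00 and 0.29.

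**Figure D1:**
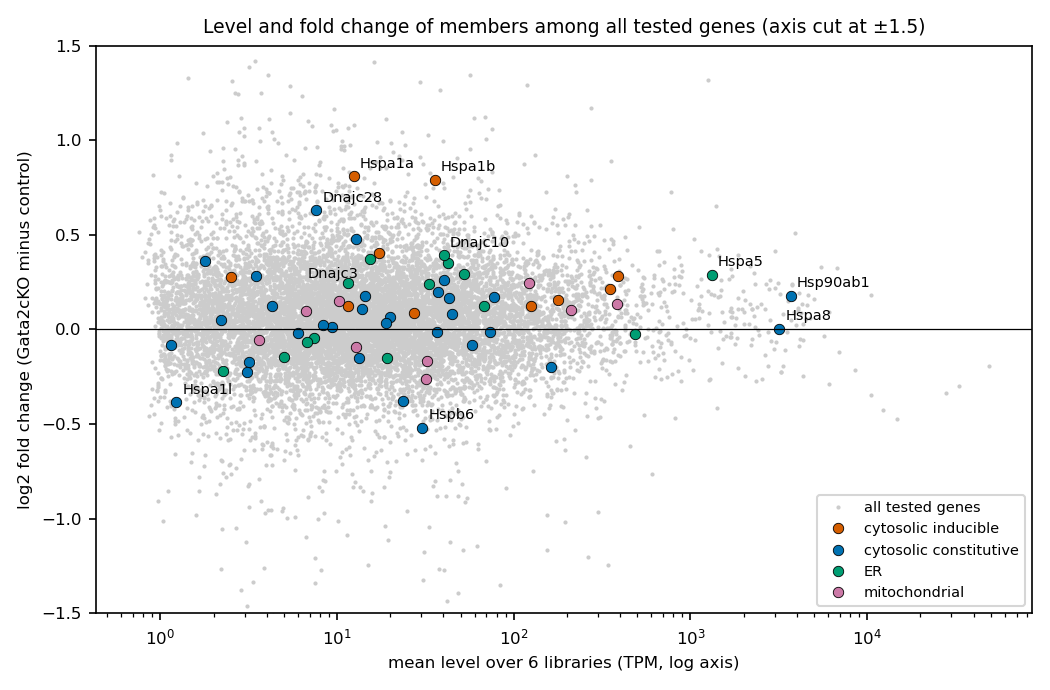
Mean level over the 6 libraries (TPM, log axis) against log2 fold change (of TPM + 1, control subtracted from Gata2cKO) for 64 tested chaperone genes, coloured by class, among the 12300 tested genes in grey (34 of them beyond the axis, which ends at 1.5 on either side). Hspa1a and Hspa1b are the highest at 0.81 and 0.79, Hspb6 is the lowest at -0.52, and Hspa8 lies near 0.

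Few chaperone genes were called, and their share was near that of all tested genes. A gene that was not called may still differ. Of 64 tested genes (TPM of 1 or more in at least 3 libraries) 4 rose and 1 fell in Gata2cKO, which is 7.81% at a limma adjusted p under 0.05, against 7.47% of all 12300 tested genes. Taken by direction, the background was 5.73% higher and 1.74% lower. The 4 that rose were Hspa1a, Hspa1b, Dnajc10 and Dnajc3, and the 1 that fell was Hspb6. The groups did not overlap for 19 of the 64 (29.7%), 15 higher and 4 lower in Gata2cKO, against 33.9% of all tested genes (23.4% higher and 10.5% lower). The median log2 fold change of the 64 was 0.11, with 42 positive and 22 negative values, beside a median of 0.05 over all tested genes.

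Scaling and single libraries changed which genes were called. With median-of-ratios scaling, and likewise with mitochondrially encoded genes left out of the total, 2 chaperone genes rose (Hspa1a and Hspa1b) and 2 fell (Hspb6 and Dnajc7), which is 6.25% against 7.21% and 5.81% of all genes tested under these scalings. Leaving out control replicate 1 gave 8 genes higher and 2 lower, which is 15.6% against 12.5% of all tested genes. Removal of any other library left 0 to 2 that rose and 0 or 1 that fell. Hspb6 kept its call in 5 of 6 removals, Hspa1a and Hspa1b in 2 each, and Dnajc10 and Dnajc3 in 1 each. The authors' deposited table gives 6 of the 65 genes at an adjusted p under 0.05 (9.23%, against 13.3% of the 14366 listed, of which 6.69% higher and 6.58% lower), and 4 of these (Hspa1b, Dnajc10, Dnajc3 and Hspb6) are among the 5 called here. Dnajc6 (log2 fold change 0.68, adjusted p = 0.0328) and Dnajc7 (-0.46, adjusted p = 0.000269) are the other calls in the authors' deposited table. Hspa1a narrowly missed a call there, at the authors' adjusted p of 0.0514.

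**Figure D2:**
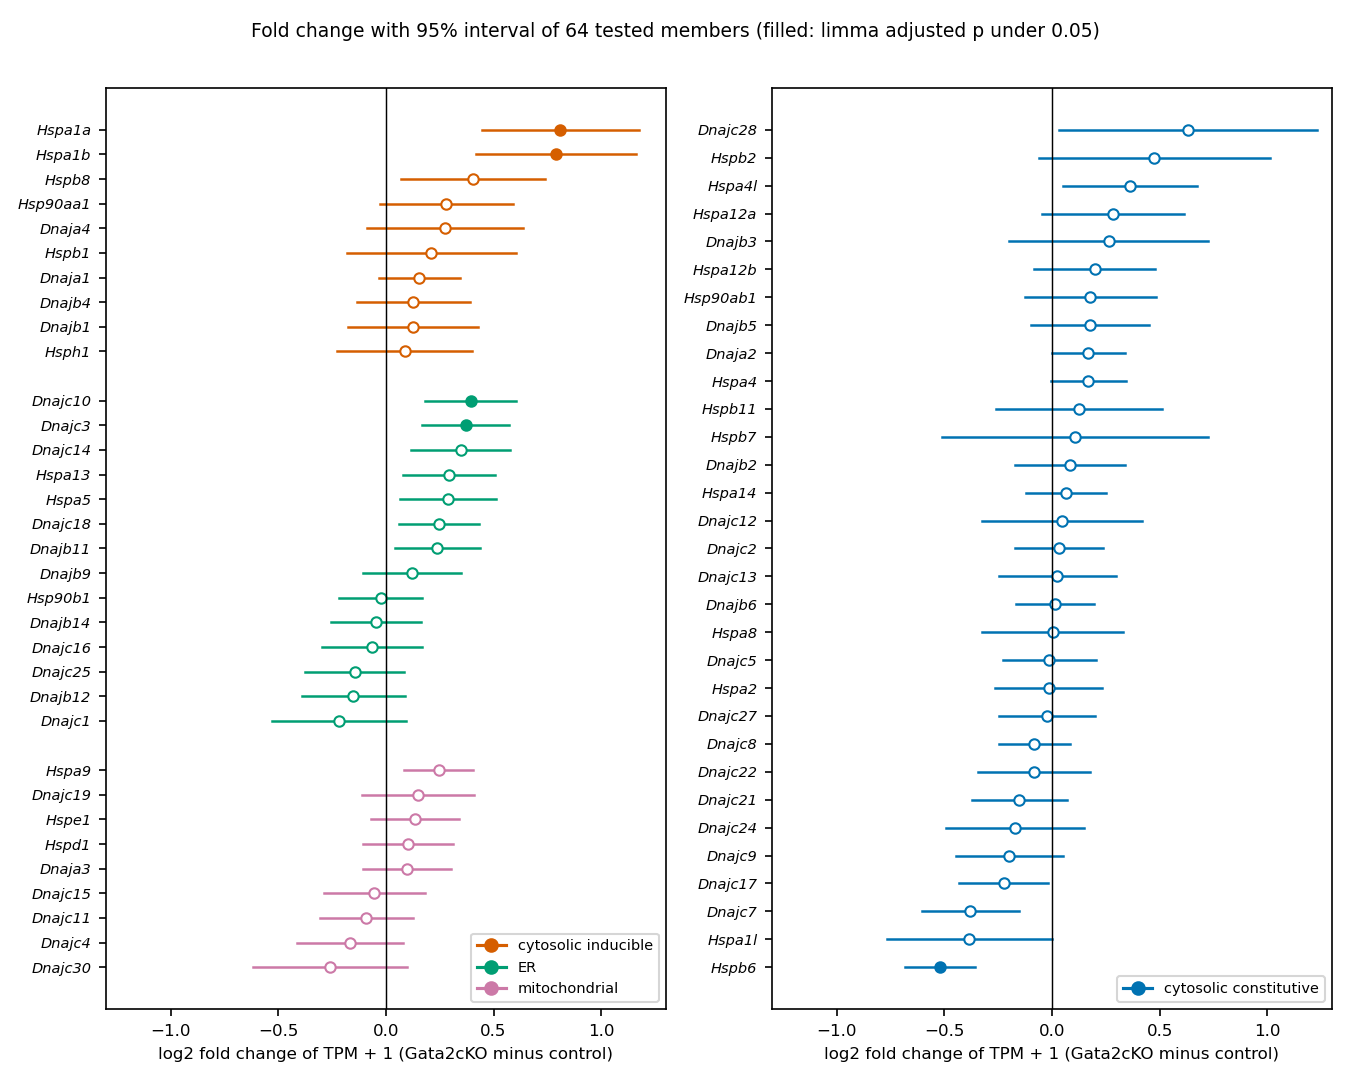
Log2 fold change of TPM + 1 (Gata2cKO minus control) with its 95% interval from limma for each of the 64 tested genes, grouped by class, with filled points where the adjusted p was under 0.05. All 10 inducible genes have a positive value, but the interval excludes 0 for only 3 of them (Hspa1a, Hspa1b and Hspb8).

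Among cytosolic inducible genes the HSP70 genes Hspa1a and Hspa1b rose, and the other 8 did not pass the test (2 of 10, or 20%, against 5.73% of all tested genes higher). These genes encode almost the same protein, the HSP70 that is made on heat shock, and lie on chromosome 17 (Hspa1a from 34969190 to 34972156 and Hspa1b from 34956436 to 34959238, GRCm38). Hspa1a was at 6.61, 10.9 and 9.09 TPM in control replicates 1 to 3 and at 15.4, 16.9 and 15.7 TPM in Gata2cKO replicates 1 to 3. All Gata2cKO values lay above all control values, and control replicate 1 was the lowest (the log2 fold change without it was 0.63). Its mean rose 1.81-fold from 8.88 ± 2.16 to 16.0 ± 0.775 TPM (here and below ± is the SD over 3 libraries). The limma fit gave a log2 fold change of 0.81 with an SE of 0.16 and an adjusted p of 0.0281.

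Hspa1b was higher in level than Hspa1a in every library, at 24.6, 29.6 and 23.0 TPM in controls and 35.7, 53.7 and 47.7 TPM in Gata2cKO. The groups again did not overlap, with Gata2cKO replicate 1 the lowest of its group. Its mean rose 1.77-fold from 25.8 ± 3.44 to 45.7 ± 9.16 TPM, and limma gave 0.79 on the log2 scale (SE 0.16, adjusted p = 0.0309). Of the distinct stretches of 75 bases in their transcripts, 54.2% for Hspa1a and 55.8% for Hspa1b also occur in another gene, almost all of them in the other gene of the pair, so the split of reads between them is uncertain. Exons of Hspa1a also overlap those of Gm20481 on the other strand over 19.0% of their length. Their summed level does not depend on that split. It was 31.2, 40.5 and 32.1 TPM in controls and 51.1, 70.6 and 63.4 TPM in Gata2cKO, a mean 1.78-fold higher, and with the values of both summed before the fit the log2 fold change was 0.81 (limma adjusted p = 0.0218). Without Gata2cKO replicate 3 the adjusted p was 0.0968 for Hspa1a and 0.111 for Hspa1b, the highest in any removal of a library.

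The other inducible genes showed smaller positive differences. Hspb8, a small heat-shock protein that works with Bag3 in selective autophagy, was at 17.4, 15.4 and 11.8 TPM in controls and 22.2, 19.2 and 18.2 TPM in Gata2cKO. The groups did not overlap, but the difference did not pass (log2 fold change 0.40, limma adjusted p = 0.123; 0.0440 without control replicate 1). Hsp90aa1, the inducible cytosolic HSP90, was the most abundant of the class at 420, 347 and 291 TPM in controls and 440, 405 and 426 TPM in Gata2cKO. Control replicate 1 lay within the Gata2cKO range and the other controls below it (log2 fold change 0.28, limma adjusted p = 0.220; 0.0308 without control replicate 1). Of its stretches of 75 bases 42.8% occur in other genes, mostly in Gm12346, as do 46.4% of those of Hspb1, all in Hsp25-ps1.

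Hspb1, the small heat-shock protein that binds actin and keeps unfolded protein soluble, was at 264, 380 and 328 TPM in controls and 311, 369 and 446 TPM in Gata2cKO, with wide overlap (log2 fold change 0.21, and 0.07 without control replicate 1, its lowest library). Dnajb1, the main J protein that partners inducible HSP70, was at 102.3, 127 and 129 TPM in controls and 119, 151 and 121 TPM in Gata2cKO. Its log2 fold change was 0.13 with a 95% interval from -0.18 to 0.43, and 0.02 without control replicate 1. Hsph1, an HSP110 that recharges HSP70 with ATP, was at 29.0, 26.4 and 23.5 TPM in controls and 23.5, 33.0 and 27.9 TPM in Gata2cKO, an interval from -0.23 to 0.40. Both intervals end below the 0.81 and 0.79 of Hspa1a and Hspa1b, and the difference between genes was not tested.

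The J proteins Dnaja1, Dnaja4 and Dnajb4 complete the class. Dnaja1 was at 178, 172 and 156 TPM in controls and 188, 183 and 192 TPM in Gata2cKO, without overlap but with a log2 fold change of only 0.15 (limma adjusted p = 0.260). Dnajb4 was at 10.5, 10.8 and 11.5 TPM in controls and 11.4, 14.2 and 10.7 TPM in Gata2cKO, and Dnaja4 was at 1.92, 2.22 and 2.29 TPM and 2.78, 3.71 and 2.07 TPM. The groups overlapped in both. Exons of Dnaja4 overlap those of Wdr61 on the other strand over 44.1% of their length. Over the class the summed level was 1055, 1122 and 985 TPM in controls and 1170, 1249 and 1308 TPM in Gata2cKO.

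The regulators around this class are given because they bear on how its members are made. Hsf1, the heat-shock factor, fell from 28.7, 28.8 and 31.1 TPM in controls to 21.5, 24.6 and 22.2 TPM in Gata2cKO (log2 fold change -0.36, limma adjusted p = 0.0448). It was the only 1 of 25 tested heat-shock factors and cytosolic co-chaperones that passed (0 rose), which is 4% against the 7.47% of all tested genes. Bag3 and Cryab, which are also heat-shock factor targets and were chosen after their values were seen, were at 15.02 ± 2.62 and 57.1 ± 5.21 TPM in controls and 17.2 ± 2.63 and 70.5 ± 3.21 TPM in Gata2cKO and did not pass. Of 13 tested subunits of the cytosolic chaperonin and prefoldin, which fold actin and tubulin, only Cct5 rose, from 209 ± 6.81 to 280.3 ± 23.6 TPM (limma, adjusted p = 0.0329), and 0 fell. That is 7.69% called, near the 7.47% of all tested genes.

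Some immediate-early genes, which respond within minutes to stimuli that include tissue handling, were lower in Gata2cKO. Of 12 tested members 3 fell and 0 rose (25%, against 1.74% of all tested genes lower), and the median over the 12 was -0.62 on the log2 scale. Fos was at 104, 247 and 190 TPM in controls and at 10.2, 16.9 and 65.9 TPM in Gata2cKO (limma adjusted p = 0.0374), Fosb was at 23.2, 72.5 and 46.2 TPM and 1.204, 1.84 and 6.55 TPM (adjusted p = 0.0128), and Ier2 went from 550 ± 64.1 to 360 ± 55.2 TPM (adjusted p = 0.0394). The other 9 did not pass, and Fosl1 and Fosl2 had positive values. The summed level of the list was 2003 to 3221 TPM in controls and 1350 to 2090 TPM in Gata2cKO, so the groups overlapped. The part of these differences in the values of Hspa1a and Hspa1b was not tested.

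**Figure D3:**
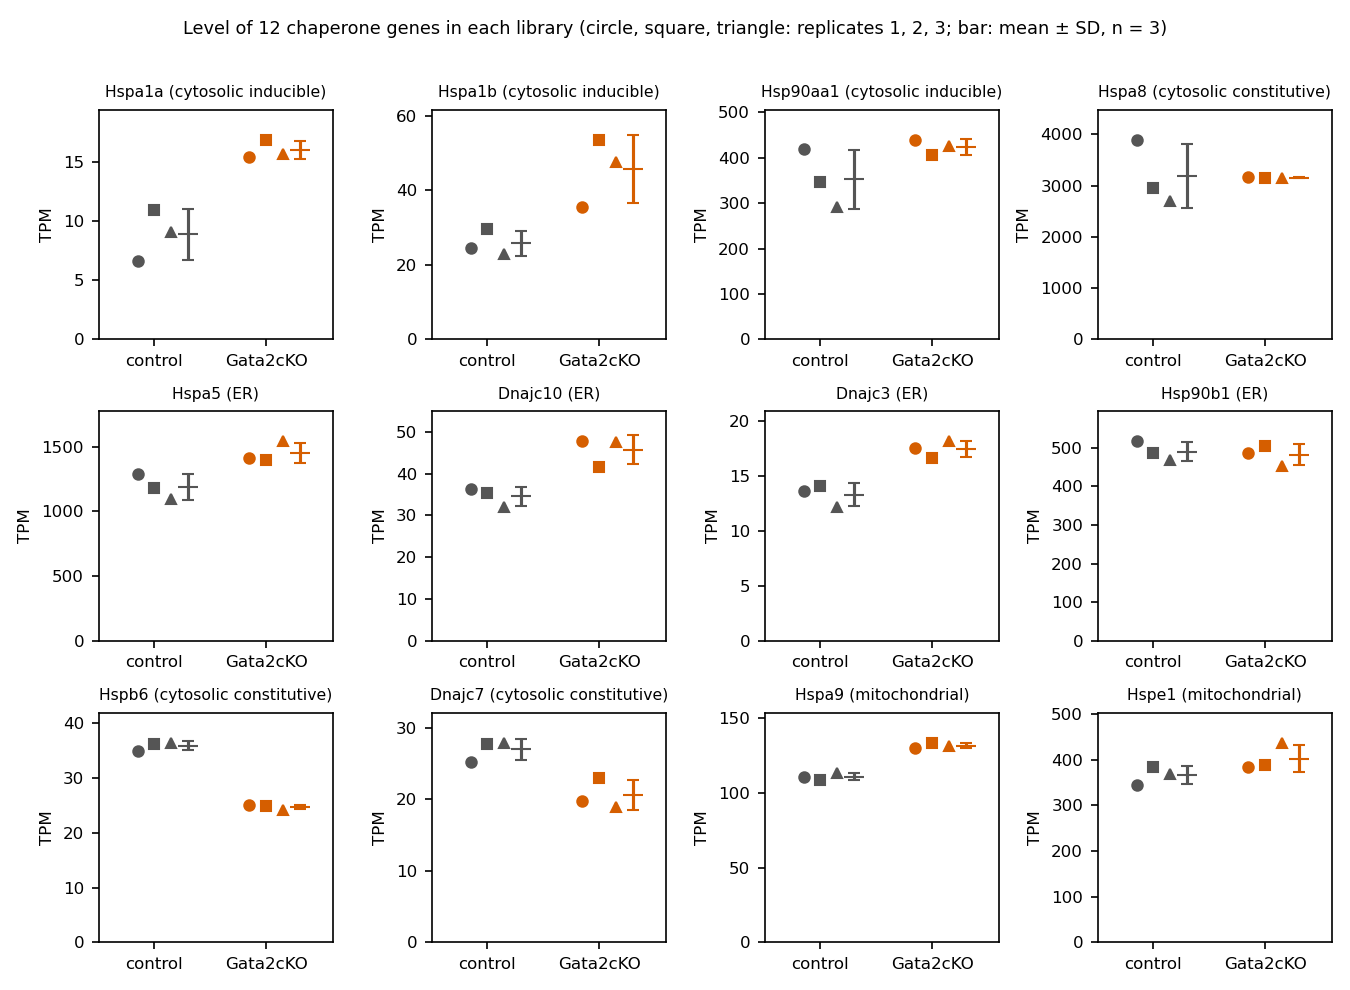
TPM of 12 chaperone genes in each control (grey) and Gata2cKO (orange) library, with circles, squares and triangles for replicates 1, 2 and 3 and bars for mean ± SD (n = 3 each), all axes from 0. Hspb6 and Hspa9 show tight groups that do not overlap, whereas the control values of Hspa8 spread from 2701 to 3895 TPM around nearly equal Gata2cKO values.

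Among ER genes 2 of 14 rose and 0 fell (14.3%, against 5.73% of all tested genes higher), and 7 of 14 lay higher in Gata2cKO without overlap (50%, against 23.4%). Dnajc10, the J protein ERdj5 that reduces disulfides of misfolded proteins, was at 36.2, 35.4 and 32.0 TPM in controls and 47.7, 41.6 and 47.6 TPM in Gata2cKO. All Gata2cKO values lay above all controls, and the mean rose 1.32-fold from 34.5 ± 2.24 to 45.7 ± 3.48 TPM (0.39 on the log2 scale with an SE of 0.09, limma adjusted p = 0.0433). Dnajc3, known as p58IPK, which binds nascent ER clients and restrains an eIF2alpha kinase of the stress response, was at 13.6, 14.1 and 12.2 TPM in controls and 17.6, 16.7 and 18.2 TPM in Gata2cKO. It rose 1.31-fold, again without overlap (0.37 on the log2 scale with an SE of 0.09, limma adjusted p = 0.0455). Both calls were lost with median-of-ratios scaling (limma adjusted p = 0.0872 for Dnajc10 and 0.0856 for Dnajc3). They were also lost in 5 of 6 removals of a library, with limma adjusted p values of up to 0.161 for Dnajc10 and 0.158 for Dnajc3, both without Gata2cKO replicate 1.

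Hspa5 and Hsp90b1, the major ER chaperones, did not pass, and the difference between these genes was not tested. Hspa5, known as BiP, the ER HSP70 and the textbook sentinel of the unfolded protein response, was at 1291, 1178 and 1093 TPM in controls and 1410, 1398 and 1541 TPM in Gata2cKO. The groups did not overlap, the mean was 1.22-fold higher, and the difference did not pass (0.29 on the log2 scale with an SE of 0.10, limma adjusted p = 0.106; 0.0301 without control replicate 1, the highest control). Hsp90b1, the ER HSP90 known as GRP94, was at 517, 485 and 468 TPM in controls and 487, 505 and 453 TPM in Gata2cKO. Its groups overlapped, and the 95% interval of its log2 fold change was -0.22 to 0.17. Of the genes that carry the ER stress element printed above, Dnajc3 thus passed the test, Hspa5 lay higher without passing, and Hsp90b1 did not separate.

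The remaining ER genes, apart from Dnajb9, were chosen for mention after their values were seen. Hspa13, an HSP70-like ATPase of microsomes, was at 50.9, 46.7 and 43.8 TPM in controls and 57.8, 53.8 and 62.3 TPM in Gata2cKO (limma adjusted p = 0.0915). The co-chaperone of BiP Dnajb11 and the membrane J proteins Dnajc14 and Dnajc18 likewise lay higher without overlap, with log2 fold changes of 0.24, 0.35 and 0.25, and did not pass. Exons of Dnajc14 overlap those of Ormdl2 on the other strand over 17.0% of their length, and strand was not known to be kept. Dnajb9, the BiP co-chaperone ERdj4, was at 61.5, 70.7 and 61.9 TPM in controls and 66.04, 67.3 and 78.2 TPM in Gata2cKO, with overlap. The membrane J proteins Dnajb12, Dnajb14, Dnajc1, Dnajc16 and Dnajc25 had negative log2 fold changes from -0.22 to -0.05, all with overlapping groups.

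Other ER folding genes were looked at as a list. Of 24 tested genes of ER folding and the unfolded protein response 2 rose and 0 fell (8.33%, near the 7.47% of all tested genes). These were Hyou1, the ER HSP110 that recharges BiP, at 85.5, 79.3 and 87.2 TPM in controls and 111, 130 and 115 TPM in Gata2cKO (limma adjusted p = 0.0224), and the lectin chaperone Canx, at 90.1, 85.2 and 78.1 TPM in controls and 132, 130 and 127 TPM in Gata2cKO (adjusted p = 0.0108). The signalling genes of the response did not pass and went both ways. Named after their values were seen, Xbp1 was at 202 ± 11.97 and 236 ± 18.5 TPM, Atf4 at 794 ± 69.2 and 759 ± 53.7 TPM and Ddit3 at 23.7 ± 3.03 and 19.3 ± 0.953 TPM in controls and Gata2cKO.

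In the mitochondrial class 0 of 9 genes passed the limma test, against 7.47% of all tested genes. At an unadjusted p under 0.05 there was 1, Hspa9, against 3365 of all 12300 tested genes. Hspa9, the matrix HSP70 known as mortalin that pulls proteins through the import pore, was at 111, 109 and 113 TPM in controls and 130, 134 and 131.1 TPM in Gata2cKO. The groups were tight and did not overlap (111 ± 2.11 against 132 ± 1.73 TPM; 0.24 on the log2 scale with an SE of 0.07, limma adjusted p = 0.0717; 0.136 with median-of-ratios scaling). Hspe1 and Hspd1, which form the HSP10 and HSP60 rings of the matrix chaperonin, were at 345, 384 and 368 TPM and 202, 198 and 209 TPM in controls, and at 383, 387 and 437 TPM and 204, 243 and 209 TPM in Gata2cKO. Both overlapped, and the 95% intervals of their log2 fold changes were -0.07 to 0.34 and -0.11 to 0.31. Hspe1 was listed above Hspd1 in every library, but 29.6% of the stretches of 75 bases of Hspd1, mostly in Hspd1-ps3, and 11.9% of those of Hspe1 occur in other genes.

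Dnajc30, a J protein of the inner membrane, had the most negative value of the class, at 39.4, 32.2 and 31.9 TPM in controls and 23.5, 27.8 and 35.3 TPM in Gata2cKO, with overlap (log2 fold change -0.26, limma adjusted p = 0.315). Its exons overlap those of Bud23 on the other strand over 26.2% of their length. The matrix J protein Dnaja3, the import motor J proteins Dnajc15 and Dnajc19, the cristae-associated Dnajc11, and Dnajc4 lay between -0.17 and 0.15 on the log2 scale, all with overlapping groups. Of 9 tested mitochondrial co-chaperones and proteases 0 passed the limma test, against the same 7.47%, and 1 had an unadjusted p under 0.05 (Grpel1, which recharges Hspa9).

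Among constitutive cytosolic genes 1 of 31 tested fell and 0 rose (3.23%, against 1.74% of all tested genes lower). Hspb6, the small heat-shock protein HSP20 that is abundant in smooth and striated muscle, was at 34.9, 36.2 and 36.4 TPM in controls and 25.0, 24.9 and 24.2 TPM in Gata2cKO. The values were tight within each group and did not overlap. Its mean went down from 35.9 ± 0.805 to 24.7 ± 0.434 TPM, and limma gave -0.52 on the log2 scale (SE 0.07, adjusted p = 0.0116), the smallest adjusted p of the 64 genes. The call held under each scaling, filter and pseudocount tried and was lost without Gata2cKO replicate 1 (limma adjusted p = 0.0556).

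Of 6 tested smooth muscle markers 2 fell and 0 rose (33.3%, against 1.74% of all tested genes lower), namely Acta2 (315 ± 50.6 against 196 ± 11.9 TPM) and Myh11 (4.49 ± 0.783 against 1.85 ± 0.214 TPM), the smooth muscle actin and myosin, while Tagln, Cnn1, Actg2 and Des did not pass and Des had a positive value. Acta2 was highest in control replicate 1, at 370 TPM against 271 and 305 TPM in control replicates 2 and 3. The summed level of the 7 listed markers was 652 to 727 TPM in controls and 539 to 592 TPM in Gata2cKO, with none at 0. The part of these markers in the value of Hspb6 was not tested. Skeletal muscle markers summed to 3.18 to 6.28 TPM in controls and 3.73 to 4.64 TPM in Gata2cKO. The other muscle small heat-shock genes, chosen after their values were seen, had positive differences that did not pass. Hspb2 was at 7.36, 14.2 and 10.5 TPM in controls and 12.2, 14.1 and 18.8 TPM in Gata2cKO, and Hspb7 at 7.69, 17.9 and 15.1 TPM and 15.3, 12.1 and 14.6 TPM, both lowest in control replicate 1 and overlapping. Exons of Hspb2 overlap those of Cryab on the other strand over 30.2% of their length.

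The abundant housekeeping chaperones did not pass the test. Hsp90ab1, the constitutive HSP90 that matures kinases and steroid receptors, was at 2896, 3636 and 3890 TPM in controls and 3625, 4130 and 3959 TPM in Gata2cKO, and ranked 35 by mean level among the 14366 genes. Hspa8, the constitutive HSP70 that also uncoats clathrin vesicles, was at 3895, 2955 and 2701 TPM in controls and 3157, 3154 and 3151 TPM in Gata2cKO, and ranked 45. Control replicate 1 was the highest library for Hspa8 and the lowest for Hsp90ab1, and without it their log2 fold changes went from 0.00 to 0.16 and from 0.18 to 0.05. The 95% interval of the log2 fold change was -0.13 to 0.48 for Hsp90ab1 and -0.32 to 0.33 for Hspa8, so changes of the size seen for Hspa1a and Hspa1b lie outside both. Of the stretches of 75 bases of Hspa8, 32.8% occur in other genes, mostly in Gm15459, against 0.537% of those of Hsp90ab1.

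The constitutive gene nearest the threshold was Dnajc7. This gene, which carries clients between HSP70 and HSP90 and was chosen after its values were seen, was at 25.2, 27.8 and 27.9 TPM in controls and 19.7, 22.9 and 18.9 TPM in Gata2cKO. The groups did not overlap (-0.38 on the log2 scale with an SE of 0.10, limma adjusted p = 0.0558), and it passed under 2 other scalings and in the authors' deposited table. Dnajc28, whose role is less clear, had the highest value of the class, at 3.96, 9.06 and 4.74 TPM in controls and 9.61, 10.8 and 7.47 TPM in Gata2cKO, with overlap (log2 fold change 0.63, limma adjusted p = 0.165; 0.42 without control replicate 1). Dnajc9, a J protein that is also a histone chaperone, was at 153, 178 and 191 TPM in controls and 149, 164 and 141 TPM in Gata2cKO (log2 fold change -0.20, limma adjusted p = 0.276; -0.29 without control replicate 1).

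The low end of the class was thinly measured. Dnajc6, the clathrin-uncoating J protein auxilin, was the only 1 of the 65 genes below the filter, at 0.273, 0.323 and 0.333 TPM in controls and 0.560, 0.439 and 0.559 TPM in Gata2cKO, and was not tested. Hspa1l, the HSP70 gene next to Hspa1a that is known from testis, was at 1.44, 1.47 and 1.61 TPM in controls and 0.712, 1.52 and 0.637 TPM in Gata2cKO, with Gata2cKO replicate 2 among the controls. Exons of Hspa1l overlap an antisense gene over 71.9% of their length. Hspa4l, an HSP110, lay higher without overlap at 1.76, 1.598 and 1.02 TPM and 2.20, 2.30 and 1.91 TPM (limma adjusted p = 0.133). These were chosen after their values were seen, and a change at such levels is understated on the log2(TPM + 1) scale.

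The other constitutive genes showed differences within a log2 fold change of -0.22 to 0.28. The HSP110 gene Hspa4 and the type A J protein gene Dnaja2 lay higher without overlap (both 0.17), and the splicing-associated Dnajc8 and Dnajc17 lay lower without overlap (-0.08 and -0.22). Groups overlapped for the HSP70-related Hspa2, Hspa12a, Hspa12b and Hspa14, for the aggregation suppressors Dnajb2 and Dnajb6, and for Dnajb3 and Dnajb5. They overlapped as well for the ribosome-linked Dnajc2 and Dnajc21, the vesicle and endosome proteins Dnajc5 and Dnajc13, and Dnajc12, Dnajc22, Dnajc24, Dnajc27 and the ciliary transport gene Hspb11.

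Summed by class, the levels lay a little higher in Gata2cKO for ER, inducible and mitochondrial genes. The ER sum was 2083, 1957 and 1834 TPM in controls and 2215, 2229 and 2332 TPM in Gata2cKO, 1.154-fold higher in mean. The mitochondrial sum was 764, 787 and 793 TPM against 807, 857 and 871 TPM, 1.08-fold, and the inducible sum given above was 1.18-fold higher. The constitutive sum was 7507, 7386 and 7407 TPM against 7527, 8096 and 7863 TPM, 1.05-fold. None of the 4 sums overlapped between groups on the TPM scale, beside 23.4% of all tested genes that lay higher without overlap. The constitutive sums came close, at 7507 TPM in control replicate 1 and 7527 TPM in Gata2cKO replicate 1. Each sum follows its most abundant genes, and Hspa5 alone accounts for most of the ER sum. Mitochondrially encoded genes held 21.9% of TPM in control replicate 1 against 13.2% to 16.3% elsewhere. Whether the sums stay apart without those genes in the total was not tested. TPM are shares of a total, and a median-of-ratios scaling took the median log2 fold change of the 64 genes from 0.11 to 0.05.

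**Figure D4:**
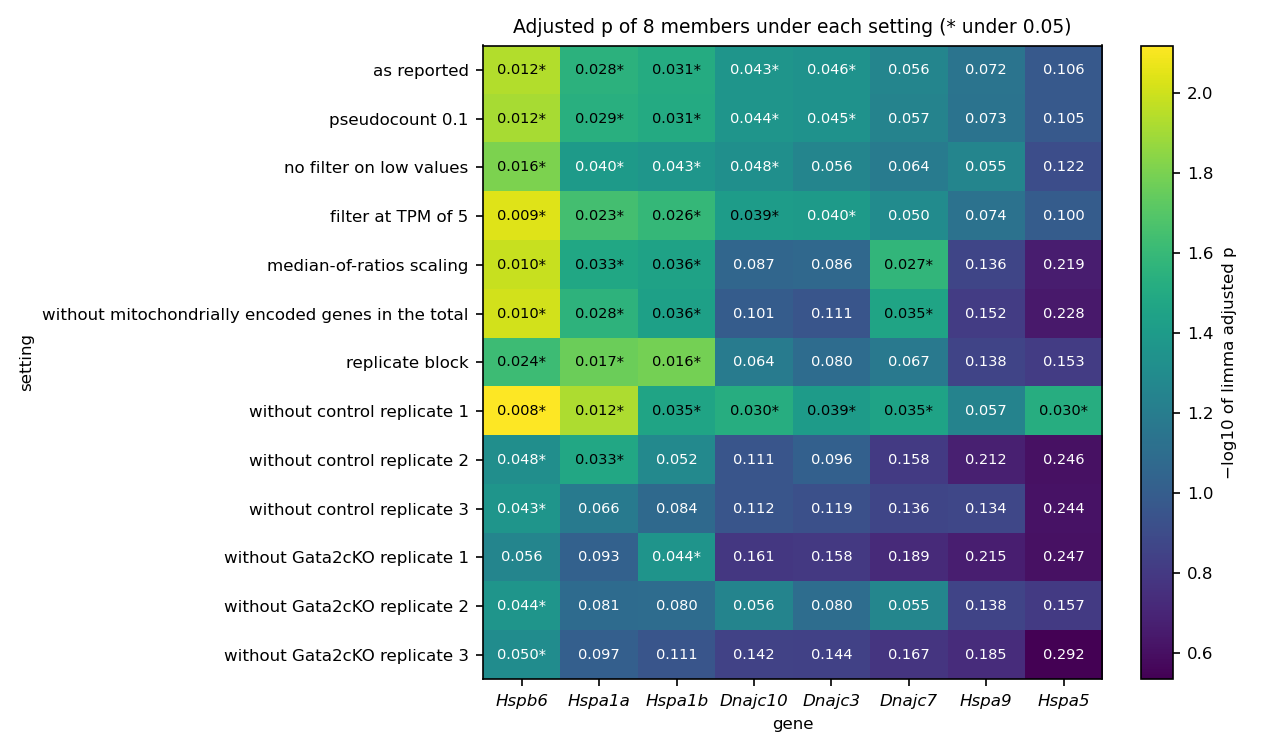
Limma adjusted p of 8 chaperone genes (columns) as reported and under 12 other settings (rows), with colour for −log10 of the adjusted p and asterisks for values under 0.05. Hspb6 holds in all but 1 setting (0.0556 without Gata2cKO replicate 1), whereas Hspa5 passes only without control replicate 1 (0.0301).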

How the data were processed

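The authors deposited a single table of 14366 genes with a TPM value for each of the 6 libraries. Its header names no unit, and TPM was taken from the values, which sum to just under the TPM total in every library. STAR 2.7.11a, DESeq and DESeq2 are named in the submitters' processing notes, and the table also holds the authors' log2 fold change, p-value and adjusted p for each gene. The sources used here do not give how reads shared by several genes were counted or whether strand was kept. Column names were matched to libraries by the labels' library names, and 0 columns were left over.

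From the TPM values, log2(TPM + 1) was fitted with limma 3.58.1 (R 4.3.3, trended prior variance, two-sided, no covariate) over the 12300 genes that reached 1 TPM in 3 libraries or more, with Benjamini-Hochberg adjustment over all of them and a threshold of 0.05. The fit was tested on simulated data, where it called 39 of 67 genes given a 1.5-fold change (58.2%). For a 2-fold change it called 57 of 67 (85.1%). Genes given in full were those past the threshold, all inducible genes, and in each class the 3 most abundant, the 2 with the largest fold change and the 1 with the smallest p. Other genes were named after their values were seen. The chaperone genes, their classes and the other gene lists were chosen with earlier results of these data known. Shared stretches of 75 bases and exon overlaps were computed from GENCODE M21 transcripts (GRCm38), and promoter windows came from RefSeq (GRCm38.p6). Alternatives were another pseudocount (0.1), no filter or a filter at a TPM of 5, other scalings, a replicate block, removal of each library, and, added after the data were seen, Hspa1a and Hspa1b summed.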

Additional observations from a re-analysis of the deposited data

How the results depend on the processing

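The 6 libraries, unknown depth and TPM scale limit these results. The number of chaperone genes higher in Gata2cKO was 4 as reported, 2 with median-of-ratios scaling, 2 without mitochondrially encoded genes and 2 with the replicate block, and ranged from 0 to 8 on leaving out a library. The number lower was 1 as reported, 2 under each of these scalings, and ranged from 0 to 2 on leaving out a library. Without control replicate 1, Hsp90aa1, Hspa5, Hspa13, Hspb8 and Dnajc7 were added to the calls. Over all tested genes the calls numbered 919 as reported, 1539 without control replicate 1 and 116 to 274 without each other library, and 76.7% of them were higher as reported against 54.9% with median-of-ratios scaling and 60.5% without mitochondrially encoded genes. The median log2 fold change of the chaperone genes was 0.11 as reported, 0.0465 with median-of-ratios scaling, 0.0493 without mitochondrially encoded genes and 0.0478 to 0.148 on leaving out a library. The sign of the log2 fold change turned for Hspa8 (-0.0579 with median-of-ratios scaling, -0.0567 without mitochondrially encoded genes, -0.04 without control replicate 2, -0.11 without control replicate 3, against up to 0.159 on leaving out another library), for Hsp90b1 (0.01 without control replicate 1 and 0.0195 without Gata2cKO replicate 3, against down to -0.0599) and for Hsph1 (-0.0304 without Gata2cKO replicate 2, against up to 0.206). The cause was not tested. The other 21 of the 24 genes given in full kept their sign under every alternative run. Over all 24 genes, 26 of 287 comparisons lost and 4 gained a call. Deviations from the group means correlated between same-numbered libraries of the groups at r = 0.25, -0.07 and 0.04. Between libraries with unlike numbers r ran from -0.28 to 0.21. Deviations from a mean of so few libraries are tied to each other, so these values cannot show whether the numbers mark pairs. The reported fit did not treat the numbers as pairing, and the replicate block left Dnajc10 and Dnajc3 uncalled (limma adjusted p = 0.0644 and 0.0803).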
